A study of Mus musculus with 6 samples.

Results

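The genes described are 8 effectors of the inflammatory forms of programmed cell death, pyroptosis and necroptosis. They were chosen by name as the rows Gsdmd, Gsdme, Casp4, Casp8, Ripk1, Ripk3, Mlkl and Ninj1 of the deposited count table, in which all 8 were found among 22377 genes. That rule used no measured value, but the 8 genes and the pathway lists below were chosen with earlier results of these data known. The data are RNA sequencing of macrophages from Lewis lung carcinoma (LLC) tumors, a mouse lung carcinoma line grown under the skin of Npm1+/+ and Npm1+/- mice. The methods of the study describe macrophages sorted as CD45+ CD11b+ F4/80+, low-input cDNA synthesis and paired-end reads, whereas the sample labels name bulk tumor tissue, TRIzol and a small RNA library, and the difference was not settled here. The labels assign 3 libraries to wt (wt1 to wt3) and 3 to knockdown (ko1 to ko3), and state no genotype. In the study the Npm1+/- mice carry the allele throughout the host and not in macrophages alone. The mice were of both sexes and 6 to 8 weeks old when tumor cells were implanted, and neither is given per library. Labels call the replicates separate biological samples and do not say which mouse each came from, so p-values measure the spread between these 6 libraries.

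In pyroptosis, inflammatory caspases cleave gasdermins, whose freed N-terminal parts assemble into pores in the plasma membrane. In necroptosis, RIPK1 and RIPK3 assemble through shared RHIM motifs and RIPK3 phosphorylates MLKL, which then permeabilises the membrane, while caspase-8 cleaves the kinases and holds this route in check. NINJ1 acts downstream of gasdermin pores, where it ruptures the membrane of the dying cell, and macrophages are the cell type in which much of this biology was worked out.

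Total counts lay between 36550775 and 38147320 per library, and the level that an unseen gene could still have, 3 counts, corresponded to at most 0.0846 CPM (counting error only). Of all genes, 13884 passed the filter on low counts, including all 8 effectors. Npm1, the targeted gene, stood at 142, 380.2 and 381 CPM in wt1, wt2 and wt3 and at 441, 499 and 343 CPM in ko1, ko2 and ko3, so its mRNA was not lower in the libraries labelled ko (log2 fold change 0.51 ± 0.36 SE, with edgeR's quasi-likelihood test giving an adjusted p of 0.436). Without wt1 the estimate for Npm1 was 0.16. The directions below are therefore those between the libraries as labelled. The library wt1 stood farthest from the mean of all libraries, with a root mean square log2 distance of 0.931 over the tested genes against 0.309 to 0.554 in the others. All 12 macrophage markers, including Ptprc, Itgam and Adgre1 of the sort, were high enough to be tested. Their summed level was between 16505 and 22019 CPM in wt and between 9852 and 16339 CPM in ko, so that this sum was lower in each ko library. The 10 neutrophil markers summed to between 1810 and 2046 CPM in wt and between 798 and 1585 in ko. The 10 fibroblast markers summed to between 32.7 and 491 CPM in wt, lowest in wt1, and between 369 and 715 in ko. The 7 epithelial or carcinoma markers summed to between 36.1 and 138 CPM in wt and between 129 and 192 in ko, with Krt19 and Cldn4 at or under 3 counts in each library. In such bulk samples, fewer cells of a type and less RNA per cell cannot be told apart, and the part of these markers in the results below was not tested.

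Levels between genes were compared on the deposited FPKM values, which are counts scaled by gene length and by the total count of the library. Ninj1 was the most abundant effector, with 272 to 393 FPKM over the 6 libraries, and its mean was higher than that of 98.3% of the genes tested. Casp4 at 37.3 to 59.6 FPKM, Gsdmd at 36.6 to 64.8 and Ripk3 at 39.6 to 52.2 came next, and their ranges overlapped, so that these neighbours did not differ beyond their spread. Casp8 followed at 27.9 to 33.8 FPKM and lay below Ripk3 in each of 6 libraries. Mlkl, the executor of necroptosis, was much less abundant, at 5.35 to 7.46 FPKM, and its range overlapped that of Ripk1 at 3.86 to 5.92, though Mlkl was the higher within each of 6 libraries. Gsdme was lowest, at 0.227 to 0.627 FPKM, above only 15.4% of the genes tested. Casp4, Gsdmd and Ripk3 exceeded 90.8%, 90.6% and 89.8% of the genes tested in mean FPKM, and Mlkl and Ripk1 58.2% and 52.3%.

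The order of some genes rested on the gene length used. The lengths implied by the deposited FPKM were 16571 bases for Ripk1 and 1489 for Casp4, whereas the exons of all annotated transcripts (GENCODE M21) covered 8344 and 3710 bases. With the GENCODE lengths, the means over 6 libraries were 230.4 FPKM for Ninj1, 39.5 for Gsdmd, 37.8 for Ripk3, 31.8 for Casp8, 19.7 for Casp4, 9.43 for Ripk1, 8.13 for Mlkl and 0.343 for Gsdme. Casp4 then moved from rank 2 to rank 5, and Ripk1 passed Mlkl. Length cancels in the comparisons between libraries below, which use counts, CPM or the FPKM values themselves.

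**Figure D1:**
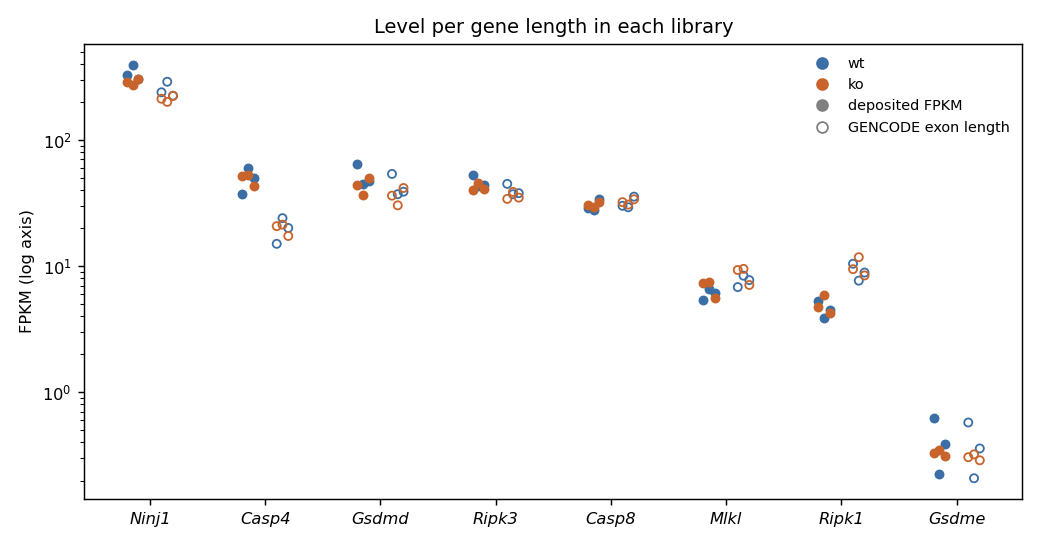
FPKM of each effector (log axis) in 6 libraries, wt in blue and ko in orange; filled points use the deposited values and open points the GENCODE exon length. Ninj1 lies above all others and Gsdme below all others on both, while Casp4 drops and Ripk1 passes Mlkl with the GENCODE length.

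Gsdmd encodes gasdermin D, the pore-forming target of caspase-1 and caspase-4 (NCBI Gene 69146, chromosome 15 from 75862327 to 75867408 on the plus strand of GRCm38). Its TMM-scaled level was 136.7, 94.4 and 93.8 CPM in wt1, wt2 and wt3 and 81.7, 62.7 and 102 CPM in ko1, ko2 and ko3. The library wt1 was highest and ko2 lowest, and the groups overlapped because ko3 exceeded wt2 and wt3. The means were 108 ± 24.6 CPM (SD, n = 3) in wt and 82.1 ± 19.5 (SD, n = 3) in ko, a log2 fold change of -0.40 with a 95% interval from -0.92 to 0.12 (SE 0.22, with an adjusted p of 0.362 by edgeR's quasi-likelihood test). Without wt1 the estimate was -0.20 and without ko2 -0.25, whereas it was -0.51 without wt3 and -0.59 without ko3.

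Casp4 encodes the mouse caspase often called caspase-11, which binds cytosolic lipopolysaccharide and cleaves gasdermin D (NCBI Gene 12363, chromosome 9 from 5308828 to 5336783, plus strand). It stood at 59.6, 95.2 and 75.5 CPM in wt1, wt2 and wt3 and at 73.1, 68.9 and 66.2 CPM in ko1, ko2 and ko3. All 3 ko libraries lay inside the range of the wt libraries, whose spread was the wider (coefficient of variation 23.2% in wt and 5.0% in ko). Between the groups the log2 fold change was -0.15, with a 95% interval from -0.55 to 0.26 (adjusted p = 0.632, edgeR's quasi-likelihood test). Its sign depended on the scaling: on the deposited FPKM scale the means were 48.9 ± 11.2 in wt and 49.2 ± 5.36 in ko (SD, n = 3 each).

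Gsdme encodes gasdermin E, another pore-forming gasdermin (NCBI Gene 54722, chromosome 6 from 50188888 to 50263862, minus strand). Its counts were 280, 101 and 174 in wt1, wt2 and wt3 and 146, 150 and 139 in ko1, ko2 and ko3. As CPM this was 7.87, 2.85 and 4.65 in wt and 3.71, 3.58 and 3.80 in ko. The wt libraries held both the highest and the lowest value and the ko libraries lay close together between them. Its log2 fold change of -0.47 had a 95% interval from -1.34 to 0.40 (adjusted p = 0.476, edgeR's quasi-likelihood test), and it was -0.02 without wt1 and -0.76 without wt2 (unadjusted p = 0.0442 in the edgeR fit of the other 5 libraries).

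Ninj1 encodes the membrane-rupture protein ninjurin 1 (NCBI Gene 18081, chromosome 13 from 49187485 to 49196244, plus strand). It stood at 400.002, 485 and 357 CPM in wt1, wt2 and wt3 and at 316, 273 and 361 CPM in ko1, ko2 and ko3. The groups overlapped only through ko3, which was above wt3 by a few CPM, and wt2 was highest and ko2 lowest. The means were 414 ± 65.2 CPM in wt and 317 ± 43.8 in ko (SD, n = 3 each). The log2 fold change was -0.39, with a 95% interval from -0.77 to -0.002 and a standard error of 0.16. The unadjusted p was 0.0491 and the adjusted p 0.328 by edgeR's quasi-likelihood test, so Ninj1 was not called. The exact permutation test over the 6 libraries gave a two-sided p = 0.2, where 0.1 is the smallest that 3 against 3 allow. On the deposited FPKM scale the groups did not overlap, with 324, 393 and 305 FPKM in wt and 288, 272 and 304 in ko, the nearest values being those of wt3 and ko3.

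**Figure D2:**
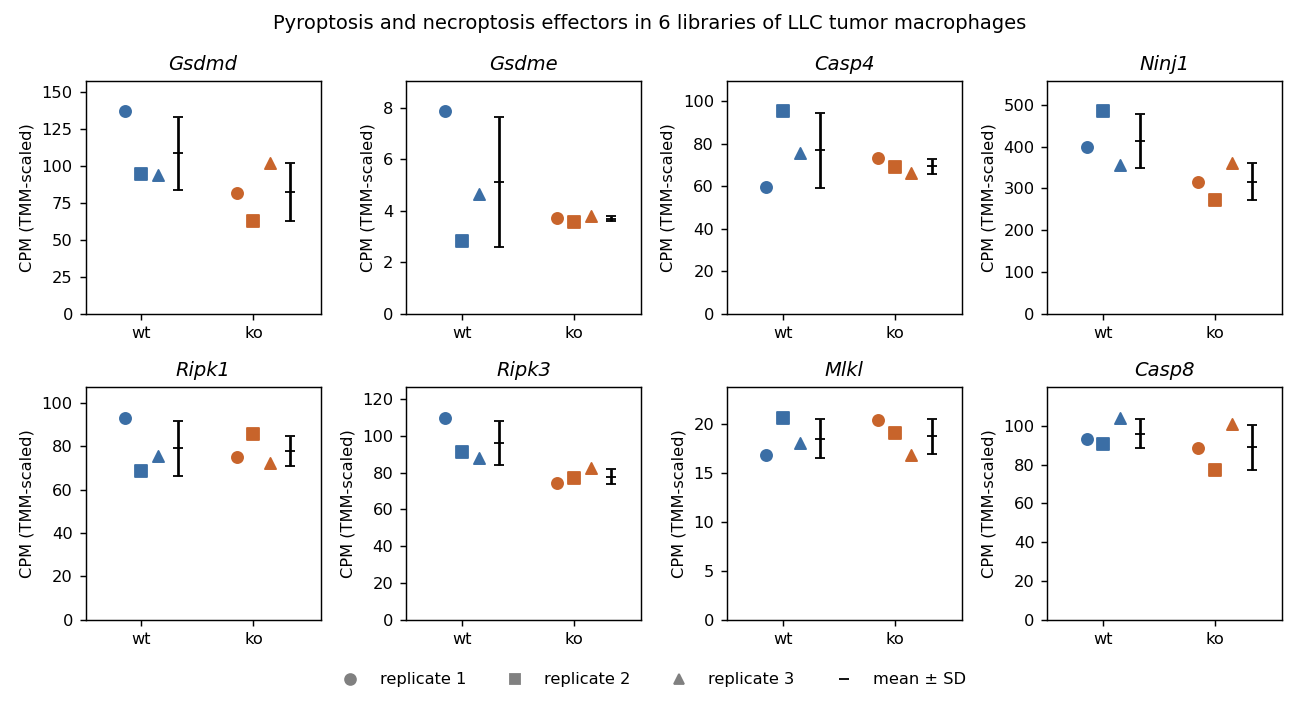
TMM-scaled CPM of the 8 effectors in each library, with axes from 0; circles, squares and triangles are replicates 1, 2 and 3, and bars give mean ± SD of 3 libraries. Ripk3 is the only one of the 8 in which the ko libraries, 74.2 to 82.3 CPM, all lie below the wt libraries, 88.0 to 110 CPM.

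Ripk3 encodes the kinase that phosphorylates MLKL (NCBI Gene 56532, chromosome 14 from 55784995 to 55788865, minus strand). Its level was 110, 91.0 and 88.0 CPM in wt1, wt2 and wt3 and 74.2, 77.2 and 82.3 CPM in ko1, ko2 and ko3. Each ko library was below each wt library, with the gap between wt3 and ko3. The means were 96.3 ± 11.9 CPM in wt and 77.9 ± 4.10 in ko (SD, n = 3 each), a fold of 0.809. This is a log2 fold change of -0.31, with a 95% interval from -0.60 to -0.01 and a standard error of 0.13. The unadjusted p was 0.0435 and the adjusted p 0.328 by edgeR's quasi-likelihood test, and the exact permutation p was 0.1 (two-sided), the smallest possible here. Without wt1, the highest library, the estimate was -0.20. On the deposited FPKM scale the groups overlapped, at 52.2, 43.2 and 44.0 FPKM in wt and 39.6, 45.0 and 40.6 in ko.

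Ripk1 encodes the kinase that joins the TNF receptor complex to RIPK3 and caspase-8 (NCBI Gene 19766, chromosome 13 from 34002363 to 34037147, plus strand). Its level was 93.3, 68.5 and 75.3 CPM in wt1, wt2 and wt3 and 75.0, 85.5 and 72.5 CPM in ko1, ko2 and ko3. The ko libraries fell within the wt range. The log2 fold change was -0.02, with a 95% interval from -0.37 to 0.32 (adjusted p = 0.931, edgeR's quasi-likelihood test), an interval that leaves room for a difference of about the size seen for Ripk3. Exonic bases of Ripk1 are shared with Serpinb6a on the opposite strand and with the pseudogene Gm17084 on the same strand. Whether the counting used strand is not given in the sources used here, so the Ripk1 counts are uncertain to that extent.

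Mlkl encodes the pore-forming pseudokinase of necroptosis (NCBI Gene 74568, chromosome 8 from 111311797 to 111338177, minus strand). It stood at 16.8, 20.7 and 18.1 CPM in wt1, wt2 and wt3 and at 20.4, 19.1 and 16.8 CPM in ko1, ko2 and ko3. It varied least of the 8 effectors, by 1.23-fold between the lowest and the highest library. The log2 fold change was 0.02, with a 95% interval from -0.34 to 0.38 (adjusted p = 0.955, edgeR's quasi-likelihood test).

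Casp8 encodes the protease that starts apoptosis from death receptors and restrains necroptosis (NCBI Gene 12370, chromosome 1 from 58795374 to 58847503, plus strand). Its level was 93.1, 90.5 and 104.3 CPM in wt1, wt2 and wt3 and 88.3, 77.4 and 101 CPM in ko1, ko2 and ko3. The lowest value was in ko2 and the highest in wt3, and ko3 lay between wt1 and wt3. The log2 fold change was -0.11, with a 95% interval from -0.42 to 0.20 (adjusted p = 0.634, edgeR's quasi-likelihood test). Without ko2 it was -0.03, without wt3 -0.06 and without ko3 -0.22. Its sign, too, depended on the scaling, with 30.1 ± 3.24 FPKM in wt and 30.7 ± 1.49 in ko (SD, n = 3 each).

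Several of these genes are known to respond to interferon, so the promoters were searched for an interferon-stimulated response element core (GAAA and GAAA separated by 2 bases), a STAT site (TTCNNNGAA) and an NF-kB site (GGGA and TTTCC separated by 1 base), each on both strands. RefSeq promoters of GRCm38.p6, from 250 bases before to 50 after a start site, were at hand for 7 of the 8 genes and 9 start sites, Gsdmd being the exception. Only 1 of the 9 promoters, the downstream one of Ripk1, held a match. It is shown because the response element core and a STAT site overlap in it, and the capitals mark the response element core in the first window and the STAT site in the others, all 3 written 5′ to 3′ on the plus strand.
Ripk1 response element core, chr13:34002859-34002888: aacgttcccgGAAATCGAAAagcgcggaac
Ripk1 STAT site at the start site, chr13:34002853-34002881: acttcaaacgTTCCCGGAAatcgaaaagc
Ripk1 STAT site upstream, chr13:34002756-34002784: agaagctggtTTCCCGGAAggggcggagg
The response element core begins 5 bases before the annotated start site and the STAT sites begin 11 and 108 bases before it. Among all 32851 promoters of this length, 3.44% held the response element core, 8.3% the STAT site and 0.411% the NF-kB site. These are matches of letters, and the other 8 promoters hold none of these letters in this window.

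Across the effectors, 0 of 8 had an adjusted p under 0.05, and the background was 0% of the 13884 genes tested (edgeR's quasi-likelihood test). At an unadjusted p under 0.05 there were 2 of 8, Ripk3 and Ninj1, both with a lower estimate in ko, against 15.2% of all genes tested and 8.31% with a lower estimate. In 1 of 8, Ripk3, the groups did not overlap, against 25.9% of all genes tested and 12.6% with ko lower. Both counts, over effectors in either direction, lay within about 1 gene of what these shares give for 8 genes. DESeq2 on the same 6 libraries gave 0 of 8 with an adjusted p under 0.05, against 0.263% of all genes. The estimate was below 0 in 7 of 8 effectors, beside 6656 of the 13884 genes tested. The median log2 fold change was -0.23 for the effectors, beside 0.02 for all genes tested.

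The signs of the estimates moved with the scaling, as did the median of all genes. A change of scaling shifts all genes by nearly the same amount. That the median of the effectors stayed below that of all genes under the 3 scalings is therefore 1 observation and not 3. Without TMM factors, that is with each library scaled to its total count, the median log2 fold change of all genes moved from 0.02 to 0.17 and that of the effectors from -0.23 to -0.07, and 4 of 8 estimates lay below 0. The effectors that kept an estimate below 0 were Gsdmd at -0.26, Gsdme at -0.32, Ripk3 at -0.15 and Ninj1 at -0.24. Only Ninj1 then separated the groups, against 6.88% of genes with ko lower. Scaled to the summed counts of the macrophage markers, which were themselves lower in each ko library, the median of all genes was 0.59 and all 8 effectors had an estimate above 0, from 0.14 for Gsdmd to 0.59 for Mlkl. Their median of 0.34 lay below that of all genes. Gsdmd then was the only effector in which the groups did not overlap, with ko higher, as in 34.4% of all genes tested (0.691% had ko lower). In none of these fits did an effector have an adjusted p under 0.05 by edgeR's quasi-likelihood test.

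**Figure D3:**
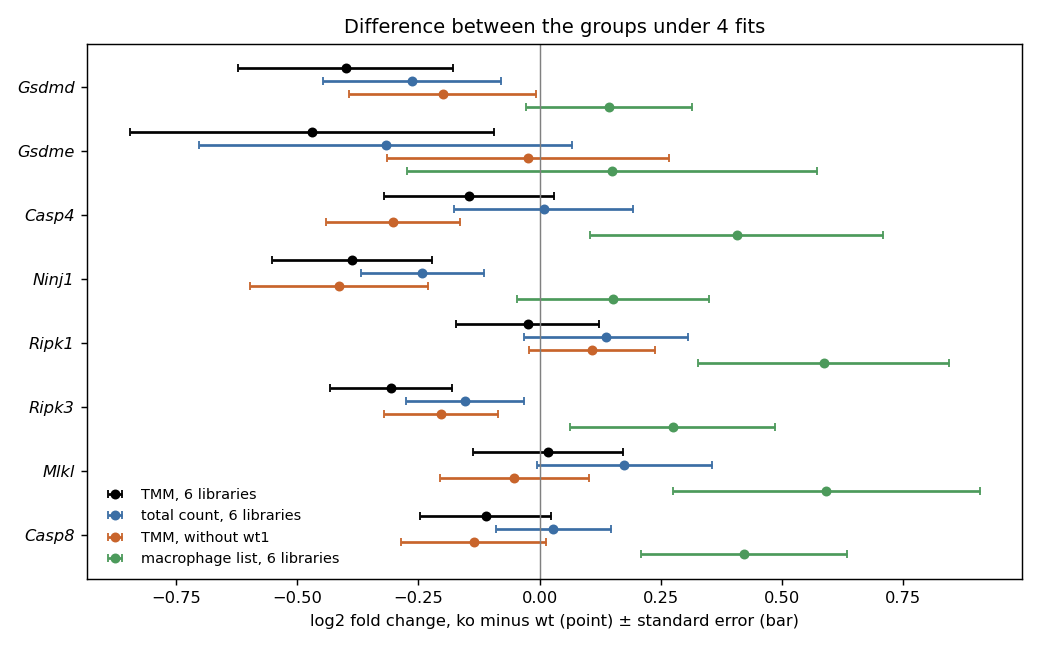
Log2 fold change of each effector, ko minus wt, with its standard error as a bar, from edgeR fits with TMM scaling, total count scaling, TMM scaling without wt1, and scaling to the macrophage markers. Estimates move together to the right with the macrophage scaling, to between 0.14 and 0.59, and Gsdme moves from -0.47 to -0.02 without wt1.

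The effectors differed in which libraries spread them. The library wt1 was the highest or lowest of the 6 in 6 of 8 effectors, highest for Gsdmd, Gsdme, Ripk1 and Ripk3 and lowest for Casp4 and Mlkl. Over all genes tested it was the highest or lowest in 66.5%, so this share is near the background. The library ko2 was lowest for Gsdmd, Casp8 and Ninj1 and highest for none of the effectors, where over all genes tested it was lowest in 26.9% and highest in 25.1%. A panel of the study shows a pair of mice per group without naming the libraries, so it gives no ground for leaving out any one of them. A set of 4 libraries without wt1 and ko3 was also fitted. These libraries were chosen with earlier results of these data known, so what follows is a description. In the 4 libraries the groups did not overlap in 5 of 8 effectors, all with ko lower (Gsdmd, Casp4, Casp8, Ripk3 and Ninj1), against 26.3% of genes with ko lower and 31.4% with ko higher. In all 6 libraries Ripk3 did not overlap either, Gsdmd, Casp8 and Ninj1 overlapped only through ko3, and Casp4 only through wt1. Leaving out these libraries thus fixed the outcome, and it is no further evidence of a difference. In these 4 libraries, 0 of 8 had an adjusted p under 0.05 by edgeR's quasi-likelihood test. DESeq2 on the same 4 libraries called 1 of 8, against 10.6% of all genes (6.21% with ko lower and 4.42% with ko higher). This was Ninj1, with a log2 fold change of -0.56 and an adjusted p of 0.0408. That call rests on the same removal, as DESeq2 on all 6 libraries gave Ninj1 an adjusted p of 0.298.

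Ratios of the counts of 2 genes within a library need no scaling. Of the 28 pairs of effectors, 1 pair had a ratio that did not overlap between the groups, against 24.3% of all pairs of tested genes. Effector pairs thus separated the groups less often than pairs of tested genes at large, and the values of this pair are a description. The pair was Ripk1 to Ripk3, the kinases of the necroptosis complex, with 0.848, 0.753 and 0.856 in wt1, wt2 and wt3 and 1.01, 1.11 and 0.881 in ko1, ko2 and ko3. The ratio was above that of each wt library in each ko library, and ko3 lay closest to wt. It rests on the Ripk1 counts, which are uncertain through the exonic bases shared with Serpinb6a and Gm17084. For Ripk3 to Mlkl, kinase to substrate, the ratio was 6.54, 4.40 and 4.86 in wt and 3.64, 4.05 and 4.89 in ko, and the groups overlapped through ko3. For Casp8 to Ripk3, protease to kinase, it was 0.846, 0.995 and 1.18 in wt and 1.19, 1.002 and 1.22 in ko, also overlapping. For Gsdmd to Ninj1, pore to rupture protein, it was 0.342, 0.195 and 0.263 in wt and 0.259, 0.23 and 0.282 in ko, so the ko libraries lay within the wt range. The Ripk3 count separated the groups when divided by that of 34.5% of the other tested genes and the Ninj1 count by that of 30.5%, the highest shares of the 8. These shares were 22.7% for Casp4, 19.6% for Mlkl, 19.4% for Ripk1, 18.2% for Casp8, 15.3% for Gsdmd and 8.44% for Gsdme.

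**Figure D4:**
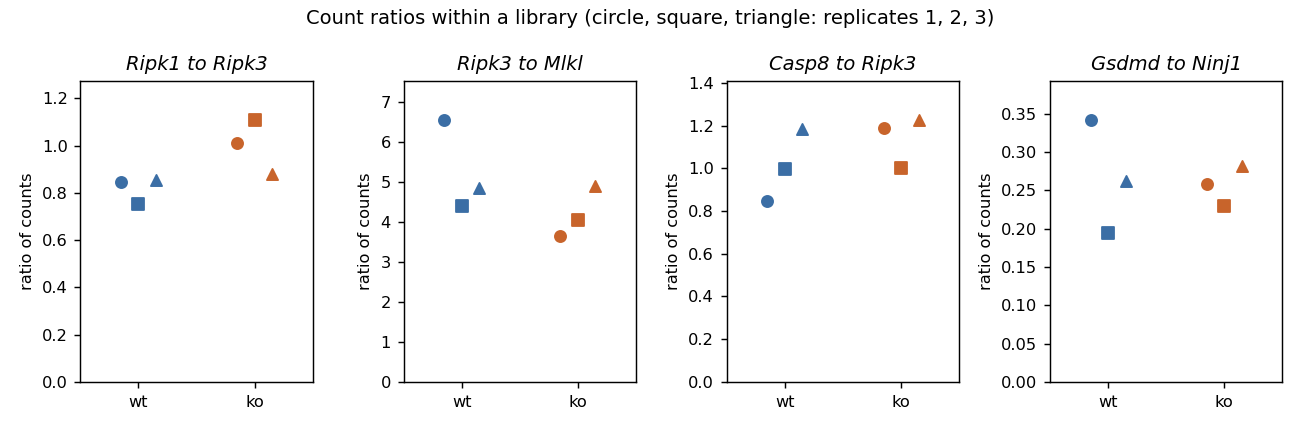
Ratio of the counts of 2 effectors within each library, with axes from 0; wt in blue, ko in orange. Ripk1 to Ripk3 is 0.753 to 0.856 in wt and 0.881 to 1.11 in ko without overlap, and the other 3 ratios overlap.

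The genes that act upstream and beside the effectors were taken in lists. From each list, the 3 genes with the smallest p of the edgeR fit are named, among others. For those 3, groups that do not overlap follow largely from that choice. Of the inflammasome and pyroptosis list, 18 of 26 genes were tested, and 0 passed after adjustment by edgeR's quasi-likelihood test. Beside 8.31% of all genes tested with a lower estimate, 3 had an unadjusted p under 0.05, all with lower estimates in ko. These were the sensor genes Naip2, Mefv and Nlrc4. Naip2, a receptor for bacterial secretion proteins, stood at 121, 109 and 103.1 CPM in wt1, wt2 and wt3 and at 74.9, 60.3 and 81.3 CPM in ko1, ko2 and ko3, without overlap (log2 fold change -0.62, adjusted p = 0.328). In the other tested Naip genes the groups overlapped, with log2 fold changes of -0.12 for Naip1, -0.15 for Naip5 and 0.02 for Naip6. NAIP proteins act through NLRC4, whose level was 20.5, 24.4 and 27.1 CPM in wt and 18.3, 16.7 and 20.2 CPM in ko, without overlap (log2 fold change -0.38, adjusted p = 0.328, edgeR's quasi-likelihood test). Mefv, which encodes pyrin, had a log2 fold change of -0.39. Casp1, the caspase of the inflammasome, stood at 56.9, 58.8 and 69.5 CPM in wt and 49.1, 45.6 and 54.8 CPM in ko, with each ko library below each wt library and an adjusted p of 0.328 in the same fit. For the adaptor Pycard (log2 fold change -0.39, and -0.24 without ko2 or -0.60 without ko3) and the sensor Nlrp3 (-0.24) the groups overlapped. Over all genes tested, the groups did not overlap in 12.6% with ko lower and in 13.3% with ko higher. Among the 18 tested genes of this list they did not overlap in 4 with ko lower and in 1 with ko higher. The latter was Casp12, a low-count gene named after its values were seen, with 14, 96 and 64 counts in wt and 159, 178 and 121 counts in ko. Its log2 fold change was 1.27 ± 0.59 SE, with an adjusted p of 0.333 by edgeR's quasi-likelihood test. Other gasdermin genes were near absent: Gsdma, Gsdmc2 and Gsdmc3 had at most 4 counts and Gsdmc4 at most 9 in any library, and Ninj2, the paralogue of Ninj1, at most 6.

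The list of inputs to caspase-4 and gasdermin D holds the guanylate-binding proteins, which expose bacterial lipopolysaccharide, and the transcription factors that drive Casp4 and Gsdmd. Of its 14 tested genes, 1 had an unadjusted p under 0.05 with a higher estimate and 3 with a lower one. Over all genes tested these shares were 6.9% and 8.31%. Gbp2 stood at 217, 277 and 177 CPM in wt1, wt2 and wt3 and at 149, 114 and 158 CPM in ko1, ko2 and ko3, below wt in each ko library (log2 fold change -0.67, adjusted p = 0.328, edgeR's quasi-likelihood test). In the other tested guanylate-binding protein genes the groups overlapped. Their log2 fold changes were -0.17 for Gbp3, 0.29 for Gbp4, -0.42 for Gbp5, 0.62 for Gbp6, -0.17 for Gbp7 and 0.07 for Gbp9. Irf2, a factor known to be needed for Gsdmd transcription, stood at 95.9, 93.0 and 78.9 CPM in wt and 57.0, 42.7 and 77.1 CPM in ko, a log2 fold change of -0.60. Gm12250, an interferon-inducible GTPase gene, had a log2 fold change of -0.64. Irf1 went the other way, at 300.1, 286 and 226 CPM in wt and 394, 412 and 375 CPM in ko, again without overlap (log2 fold change 0.54, adjusted p = 0.328, edgeR's quasi-likelihood test).

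In the TNF receptor death complex, all 32 genes were tested, and 1 had an unadjusted p under 0.05 with a higher estimate and 4 with a lower one. Over all genes tested these shares were 6.9% and 8.31%. In either direction the list had 5 of 32, near the 15.2% of all genes tested. The ligand Tnf stood at 393, 541 and 393 CPM in wt1, wt2 and wt3 and at 705, 711 and 770.04 CPM in ko1, ko2 and ko3, above wt in each ko library (log2 fold change 0.72, adjusted p = 0.328, edgeR's quasi-likelihood test). Its receptor Tnfrsf1a stood at 332, 214 and 198 CPM in wt and 157, 112 and 194 CPM in ko, below wt in each ko library though by little in ko3 (log2 fold change -0.69, adjusted p = 0.328). Tradd, the adaptor of that receptor, had a log2 fold change of -0.50. Without wt1 these were -0.42 for Tnfrsf1a and -0.33 for Tradd. For Fadd, the adaptor of caspase-8, the level was 7.11, 5.52 and 5.19 CPM in wt and 7.58, 5.01 and 4.70 CPM in ko, which overlapped. Cflar, whose product FLIP pairs with caspase-8, stood at 303, 645 and 529 CPM in wt and 582, 594 and 559 CPM in ko, and the groups overlapped. Per length, Cflar was at 32.1 FPKM in wt1 and at 59.1 to 77.5 FPKM in the other libraries, beside 28.7 FPKM for Casp8 in wt1. The median log2 fold change of the list was -0.03.

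Among the 19 tested inputs to RIPK3 and regulators of MLKL, 4 had an unadjusted p under 0.05, all with lower estimates. Over all genes tested, 8.31% had such a p with a lower estimate. Zbp1, a nucleic acid sensor that binds RIPK3 through its RHIM motifs, stood at 98.6, 75.2 and 66.2 CPM in wt1, wt2 and wt3 and at 56.2, 47.7 and 54.4 CPM in ko1, ko2 and ko3. Each ko library was below each wt library, as for Ripk3 itself (log2 fold change -0.60, adjusted p = 0.328, edgeR's quasi-likelihood test). Adar, whose product keeps ZBP1 from sensing the cell's own RNA, also had a lower estimate, with a log2 fold change of -0.51 (-0.29 without wt1), and Flot1, a flotillin that removes MLKL from the membrane, had -0.47. Against 15.2% of all genes tested, 1 of the 18 tested ESCRT and annexin genes, which repair gasdermin and MLKL pores, had an unadjusted p under 0.05. This was Chmp7, with a log2 fold change of -0.46. In this list 15 of 18 estimates lay below 0 with TMM scaling, beside 6656 of 13884 over all genes tested. The values of Chmp4b and Vps4a were -0.30 and -0.27.

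Of the 20 apoptotic caspases and BCL2 family genes, 2 had an unadjusted p under 0.05 with a higher and 3 with a lower estimate. Bbc3, the BH3-only gene for PUMA, stood at 28.8, 24.6 and 23.3 CPM in wt1, wt2 and wt3 and at 39.6, 49.9 and 41.2 CPM in ko1, ko2 and ko3 (log2 fold change 0.77, adjusted p = 0.328, edgeR's quasi-likelihood test). Bcl2, which opposes it, also had a higher estimate, with a log2 fold change of 0.99, and Apaf1, the scaffold of the apoptosome, a lower one at -0.43. Of 21 tested interferon response genes, 9 had an unadjusted p under 0.05, all with lower estimates, and the list had a median log2 fold change of -0.40. In 10 of the 21 the groups did not overlap, with ko lower in each, against 12.6% of all genes tested with ko lower. Examples are Usp18 (-0.83), Dhx58 (-0.72) and Oasl2 (-0.65). In every list, 0 genes had an adjusted p under 0.05 in this fit, against 0% of all genes, with 6.9% of all genes at an unadjusted p under 0.05 and a higher estimate and 8.31% with a lower one. The same lists had medians of -0.22 (inflammasome), -0.27 (caspase-4 and gasdermin D inputs), -0.01 (necroptosis inputs), -0.14 (ESCRT) and -0.17 (apoptosis).

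**Figure D5:**
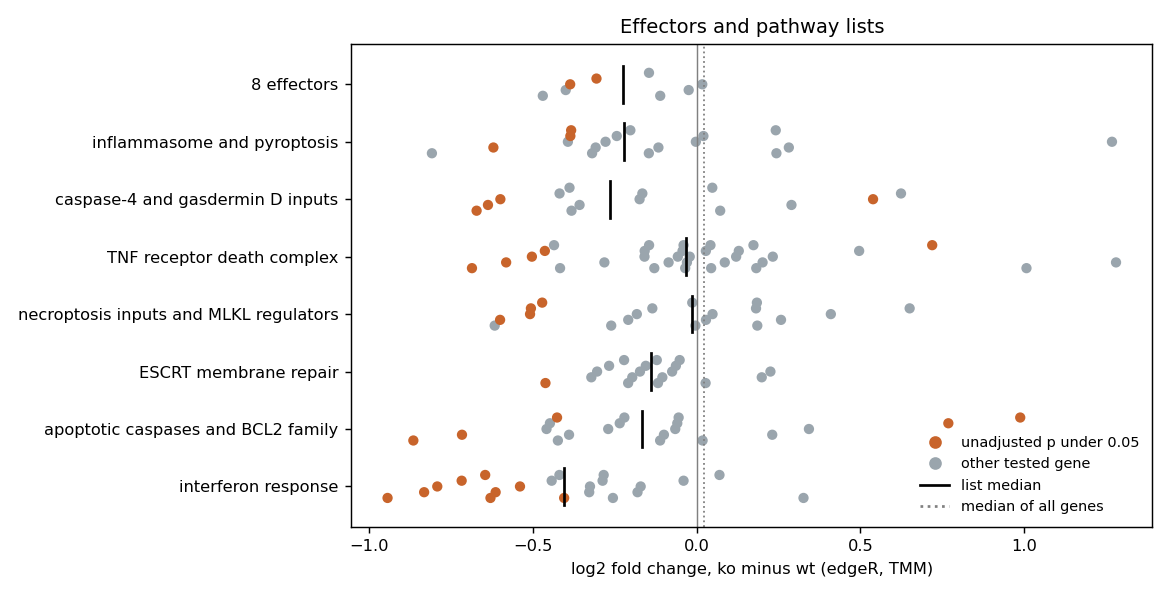
Log2 fold change, ko minus wt, of every tested gene (point) in the 8 effectors and 7 pathway lists; orange marks an unadjusted p under 0.05, black bars list medians and the dotted line the median of all genes. The interferon response list lies farthest to the left, with a median of -0.40, and the effectors have a median of -0.23.

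The genes whose pattern over the 6 libraries lay closest to each effector were found by the root mean square difference of log2 CPM values centred on each gene's mean. For Gsdmd these were Gpx1 and Coro1b, at 0.0228 and 0.032 log2 units, where Gsdmd itself varied by 0.337. For Ripk3 they were Arhgap1 and Dvl3, at 0.0203 and 0.024, and for Ninj1 Tgm2 and Nfkbie, at 0.0492 and 0.0549. For Casp4 they were Gm41235 and Sec22c, at 0.0598 and 0.0754, and for Gsdme Map3k9 and Hhex, at 0.0592 and 0.0757. For Casp8 they were Cab39l and Synj1, for Ripk1 Map2k7 and Tbpl1, and for Mlkl Ppa2 and ND1, the last a mitochondrially encoded gene. No effector was among the closest 2 genes of another effector. This is a description over 6 libraries that share their scaling.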

How the data were processed

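For 6 libraries the authors deposited raw counts by gene and a second table in FPKM. The submitters' processing notes name mm10 as the genome build, and the aligner, counter and annotation are not given in the sources used here. As checked from the values for 13827 genes, a deposited FPKM is a count over its library total and a fixed gene length. Counts were fitted with edgeR 4.0.16 in R 4.3.3 (filterByExpr, TMM, glmQLFit, glmQLFTest), ko against wt, with Benjamini-Hochberg adjustment over 13884 genes and a threshold of 0.05. The fit was tested on simulated data. CPM use TMM-scaled library sizes, and log2 CPM a prior count of 2. Alternatives used DESeq2 1.42.0 and limma 3.58.1 on log2 FPKM plus 1 or plus 0.1. Coordinates are from GENCODE M21 on GRCm38, the same assembly as mm10, matched by symbol.

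No libraries were duplicates: within a group, the chi-square value per gene was 23.9 or more between any 2. Replicate numbers did not pair the libraries, with correlations of deviations of -0.241, 0.0605 and -0.337. Named are the 8 effectors, Npm1, in each list the 3 genes with the smallest p plus Casp1, Pycard, Nlrp3, Zbp1, Cflar, Fadd, Tnfrsf1a, Gbp2 and Irf2, and the 2 genes closest to each effector. A further gene of that rule is not reported here. Gsdma, Gsdmc2, Gsdmc3, Gsdmc4, Ninj2, Naip1, Naip5, Naip6, Gbp3, Gbp4, Gbp5, Gbp6, Gbp7 and Gbp9 were named after their values were seen. The effectors and lists were chosen with earlier results of these data known. Dendritic, T and NK, B and endothelial marker sums were at most 521, 273, 58.0 and 38.1 CPM in any library. The T and NK sum was 43.6, 45.6 and 118 CPM in wt1, wt2 and wt3 and 110, 273 and 96.1 CPM in ko1, ko2 and ko3. The B cell sum was also highest in ko2. The part of these cells in the results was not tested.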

Additional observations from a re-analysis of the deposited data

How the results depend on the processing

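Total count scaling, scaling to the macrophage markers and the counts of effectors without overlap under other settings were added after the data were seen. The number of genes with an adjusted p under 0.05, 0 in edgeR, was 36 with DESeq2 on 6 libraries and 1283 with DESeq2 without wt1 and ko3, where 1 effector was called. It was 0 in the other fits in which all genes were counted. The number of effectors with an unadjusted p under 0.05, 2 by TMM, was 0 with upper quartile scaling, DESeq2, limma on log2 FPKM plus 1 or plus 0.1, total count scaling and scaling to the macrophage markers, where 15.1%, 11%, 20%, 18.7%, 16.4% and 29.5% of all genes in the fit had such a p. It was 1 without a low-count filter and when 10 counts were required in each library (13% and 16.4% of all genes). With 1 library left out it was 0 to 2. It was 0 without wt1, ko1 or ko2, with 12.2%, 5.49% and 4.75% of all genes. It was 1 without wt2 (Gsdme, with 18.8% of all genes), 2 without wt3 (Ripk3 and Ninj1, 16.8%) and 2 without ko3 (Gsdmd and Ninj1, 17.3%). Without wt1 and ko3 the groups did not overlap in 5 effectors, an outcome fixed by leaving out these libraries. With the replicate number as a block, 0 effectors and 11.6% of all genes had an unadjusted p under 0.05, and the block changed no adjusted call.

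Ripk1 changed sign to 0.018 with upper quartile scaling, 0.0079 with at least 10 counts, 0.11 and 0.13 with limma plus 1 and plus 0.1, 0.14 with total count scaling, and 0.15 in edgeR and 0.12 in DESeq2 without wt1 and ko3. Casp4 and Casp8 changed sign to 0.028 and 0.031 with limma plus 1, 0.028 and 0.032 with limma plus 0.1, and 0.0085 and 0.028 with total count scaling. Mlkl changed sign to -0.0058 with DESeq2 and -0.018 with DESeq2 without wt1 and ko3. With 1 library left out, Ripk1 ranged from -0.12 to 0.11, Casp4 from -0.30 to 0.034 and Casp8 from -0.22 to -0.03. Gsdme ranged from -0.76 to -0.02 and Mlkl from -0.052 to 0.099. The ranges were -0.59 to -0.20 for Gsdmd, -0.38 to -0.20 for Ripk3 and -0.50 to -0.26 for Ninj1. Scaled to the macrophage markers, the values were 0.14 for Gsdmd, 0.15 for Gsdme, 0.41 for Casp4, 0.42 for Casp8, 0.59 for Ripk1, 0.27 for Ripk3 and 0.15 for Ninj1. The cause was not tested. Of the other genes named by rule, Fadd changed sign to 0.063 and 0.083 with limma plus 1 and plus 0.1. Without wt1 and ko3 Fadd was 0.23 in edgeR and 0.19 in DESeq2, where Cflar was -0.0015 and -0.040. With 1 library left out, Fadd ranged from -0.29 to 0.10, Cflar from -0.024 to 0.47 and Nlrp3 from -0.40 to 0.0075. Gsdmd, Gsdme, Ripk3 and Ninj1 kept an estimate below 0 in every alternative apart from the macrophage scaling.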
